A study of Mus musculus with 6 samples.

Results

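T cell receptor gene segments were examined in whole blood RNA of outbred male CD1 mice, 3 from an enriched environment (EE) and 3 from a standard environment (SE). Members were the probe sets of the deposited table whose annotation holds a gene symbol of a receptor segment or constant region. This rule found 22 of 41345 probe sets, and it used no measured value. All 22 were annotated to variable (V) segments, 19 to the alpha locus, 1 to the beta locus and 2 to the gamma locus. No probe set was named for a joining segment, a constant region or a segment used by the delta chain alone, while Trav14d-3-dv8 is a segment that alpha and delta chains share. The 22 probe sets name 9 of the 148 V segments in the RefSeq table for GRCm38.p6, and segments that the annotation does not name were not analysed here. Both groups were 9 weeks old at sampling and had spent 2 weeks in their enclosure. EE enclosures were larger and held a wheel, a nest house and a tunnel, neither group received an inflammatory insult, and which of the arrayed mice shared an enclosure is not given in the sources used here.

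A T cell receptor is a pair of chains, alpha with beta or gamma with delta, that recognizes antigen at the cell surface. Each developing T cell assembles its own receptor genes by joining a V segment to a joining segment, with a diversity segment between them in the beta and delta chains, and the V segment then supplies most of the antigen-binding part of the chain. The assembled chain is transcribed with a constant region, and the receptor reaches the surface only together with the CD3 proteins. In blood, a V segment is therefore read from those T cells that chose it, and its level over a whole blood sample pools many T cell clones.

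Several probe sets carry the same segment's name. In the annotation, 6 name Trav12-2, 5 Trav9d-3, 3 Trav7-4 and 3 Trav14d-3-dv8, and 1 each names Trav3-4, Trbv13-2, Trgv5 and Trgv6. The remaining probe set is shared by Trav3n-3 and A430107P09Rik and is assigned to neither. Alpha V segments lie on chromosome 14 in GRCm38.p6, Trbv13-2 lies on chromosome 6, and Trgv6 and Trgv5 lie on chromosome 13. In mouse, alpha V segments come in families with near-identical duplicated copies, to which the letters d and n in the names refer, and cross-hybridization between copies was not tested. Among the Trav12-2 probe sets, 2 pairs had identical values on all 6 arrays, so 20 members were distinct. Calls are given over the 22, and counts by mouse over the 20.

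Values are log2 expression after the authors' robust multiarray average (RMA) normalization. Levels of different probe sets are not comparable, since each has its own probes. Of the 20 distinct members, 11 had a mean over the 6 arrays of at least 100 on the linear scale (6.64 on the log2 scale), the minimum that the study's methods set, and 9 lay below it. The array of EE mouse 3 stood apart over the whole table, with 8255 probe sets at 100 or more against 9027 to 9336 on the other arrays, so these results are given with and without it. Other T cell genes were read from the same blood. All 7 T cell markers with a probe set of their own name, Cd3e and Cd4 among them, lay above 100 on the linear scale, while the thymocyte markers Dntt, Rag2 and Ptcra all lay below it.

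No V segment passed the test between EE and SE mice. At an unadjusted p under 0.05, limma called 0 of 22 members, where 3.74% of all probe sets were called (1.45% higher and 2.3% lower in EE), and the lowest adjusted p among members was 1.00. With the study's filter on Entrez ID and level, limma called 0 of the 13 members kept, where 4.6% of the filtered probe sets were called. Log2 fold changes, EE minus SE, ran from -0.14 to 0.32 with a median of 0.10, against a median of -0.01 over all probe sets. The fold change was positive for 18 of the 20 distinct members, compared with 48.4% of all probe sets. This count rested on EE mouse 1, without which 7 of the 20 were positive, against 48.9% of all probe sets, and with each other mouse left out it was 13 to 18. For each distinct member some EE value overlapped an SE value. Over all probe sets, 8.37% showed groups that did not overlap, so 0 of 20 is not far from that share. In bulk blood, a difference in the number of T cells and one in receptor RNA per T cell cannot be told apart.

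**Figure D1:**
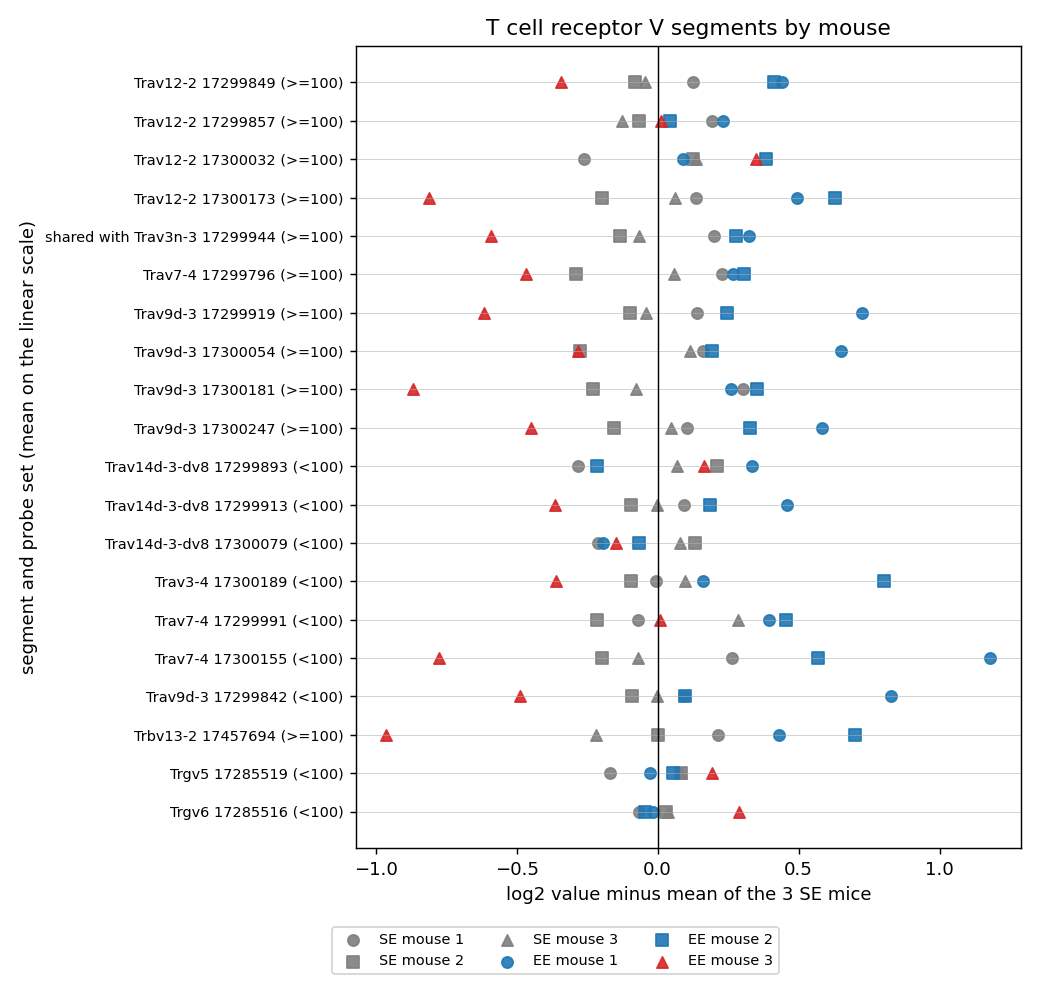
Each point is 1 mouse, and the horizontal axis gives its distance from the SE mean on the log2 scale, for each of the 20 distinct probe sets on the vertical axis (marked by whether the mean is at least 100 on the linear scale). EE mouse 3 (red) was the lowest of the 6 mice in 13 of 20 probe sets and EE mouse 1 or 2 (blue) the highest in 17 of 20.

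Trav12-2 encodes an alpha chain V region and was named by the most probe sets. Values are listed by mouse number throughout. In probe set 17300173 the SE mice read 9.36, 9.03 and 9.28 on the log2 scale, while the EE mice read 9.72, 9.85 and 8.41. EE mice 1 and 2 were above every SE mouse and EE mouse 3 was below every one. By limma its EE over SE log2 fold was 0.11 ± 0.37 (standard error), with an unadjusted p of 0.781. Probe set 17299849, with the same values as 17299926, likewise had EE mice 1 and 2 above and EE mouse 3 below every SE mouse. It read 6.83, 6.62 and 6.65 in SE and 7.14, 7.11 and 6.36 in EE.
The other Trav12-2 probe sets did not share this pattern. In probe set 17300032 the SE mice lay at 6.35, 6.74 and 6.75 and the EE mice at 6.70, 7.001 and 6.96, so that EE mouse 3 was the second highest and SE mouse 1 the lowest. It had the smallest p among the members, 0.122 unadjusted by limma, for a log2 fold of 0.27 ± 0.16 (standard error) and a 95% interval from -0.09 to 0.64. Probe set 17299857, whose values equal those of 17299934, stayed within 0.36 on the log2 scale over the 6 mice, with SE values of 7.50, 7.24 and 7.18 and EE values of 7.54, 7.35 and 7.32. Probe sets named for 1 segment therefore disagreed on where EE mouse 3 stood.

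All 5 probe sets of Trav9d-3, another alpha V segment, were lowest in EE mouse 3. Probe set 17300247 read 11.28, 11.02 and 11.22 in SE and 11.76, 11.50 and 10.72 in EE, with means of 11.33 ± 0.54 (SD, n = 3) in EE and 11.17 ± 0.14 (SD, n = 3) in SE. The groups overlapped only through EE mouse 3. Probe set 17299919 showed the same order, with SE values of 7.81, 7.57 and 7.63 and EE values of 8.39, 7.92 and 7.05. Probe set 17300054 had SE values of 7.51, 7.07 and 7.46 and EE values of 7.99, 7.54 and 7.06, which put EE mouse 3 level with SE mouse 2.
Probe set 17300181 read 8.90, 8.37 and 8.52 in SE and 8.86, 8.95 and 7.73 in EE. It was 1 of the 2 distinct members with a negative fold change (-0.08, standard error 0.33). Probe set 17299842, whose mean of 98.8 on the linear scale is just under the minimum, had SE values of 6.65, 6.46 and 6.55 and EE values of 7.38, 6.65 and 6.07. Across the 5 probe sets, EE mouse 3 minus the mean of EE mice 1 and 2 ran from -1.18 to -0.70 on the log2 scale.

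Trbv13-2 is the beta V segment long known as Vβ8.2, which binds the staphylococcal enterotoxin B superantigen and is much used by invariant natural killer T cells in mice. It read 7.86, 7.65 and 7.43 in SE and 8.07, 8.34 and 6.68 in EE, a mean of 7.70 ± 0.89 (SD, n = 3) in EE and 7.64 ± 0.22 (SD, n = 3) in SE. EE mice 1 and 2 again lay above and EE mouse 3 below all SE mice. The 6 mice spanned 1.66 on the log2 scale, and the log2 fold change was 0.06 (standard error 0.41, 95% interval from -0.91 to 1.02). That interval admits a change of close to 2-fold either way.

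Among the other alpha V segments, the widest range of any member belonged to Trav7-4. Its probe set 17300155 read 4.98, 4.52 and 4.65 in SE and 5.90, 5.29 and 3.94 in EE, a span of 1.96 on the log2 scale. No other member had a higher fold, 0.32 ± 0.46 (standard error) on the log2 scale, and its unadjusted p from limma was 0.499. Its mean of 29.5 on the linear scale was under the minimum.
Of the other Trav7-4 probe sets, 17299796, at 132 on the linear scale, had SE values of 7.25, 6.74 and 7.08 and EE values of 7.29, 7.33 and 6.56, and 17299991, at 8.36 on the linear scale, had SE values of 2.85, 2.70 and 3.20 and EE values of 3.32, 3.37 and 2.93. EE mouse 3 was the lowest mouse in the first and fell within the SE mice in the second. The probe set shared by Trav3n-3 and A430107P09Rik read 7.77, 7.44 and 7.51 in SE and 7.90, 7.85 and 6.98 in EE, and the group means differed by 0.0038 (standard error 0.26). A further probe set of the table, annotated to A430107P09Rik alone, had identical values.
Trav3-4, at 6.00 on the linear scale, had SE values of 2.48, 2.39 and 2.58 and EE values of 2.65, 3.29 and 2.13. The 3 probe sets of Trav14d-3-dv8, the segment shared by alpha and delta chains, had means of 14.3 to 34.8 on the linear scale. They differed from each other: EE mouse 3 was lowest in probe set 17299913 (4.71, against 4.98 to 5.54 in the other mice) but not in 17299893 (5.19, against 4.74 to 5.36) or 17300079 (3.75, against 3.69 to 4.03). Probe set 17300079 was the other distinct member with a negative log2 fold change (-0.14, standard error 0.13).

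Both gamma V segments were highest, not lowest, in EE mouse 3. Trgv5 and Trgv6 are the segments of gamma delta T cells that arise early in the fetal thymus and settle in the skin and in mucosal tissues of mice. Trgv6 read 4.41, 4.51 and 4.51 in SE and 4.46, 4.43 and 4.77 in EE, whereas Trgv5 read 4.11, 4.36 and 4.36 in SE and 4.25, 4.33 and 4.47 in EE. Each stayed within 0.36 on the log2 scale over the 6 mice. Over all probe sets, EE mouse 3 was highest in 27.7%, but in only 1255 of the 8892 at 100 or more, so it was highest more often at low levels. Trgv6 and Trgv5 averaged 22.9 and 19.9 on the linear scale, under the minimum. Their log2 fold changes were 0.08 and 0.07 (standard errors 0.13 each). Of 6 markers of gamma delta or innate-like T cells, 5 were measured and 0 of these had a mean of 100 or more, and 4 (Sox13, Cd163l1, Zbtb16 and Il17re) were highest in EE mouse 3. The fifth, Maf, a transcription factor, was the 1 gene of this list that limma called at an unadjusted p under 0.05, higher in EE by 0.30 (standard error 0.10, unadjusted p = 0.0232, adjusted p = 1.00).

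Most V segments were spread more widely among EE than among SE mice, with EE mouse 3 at the lower end. That mouse was lowest in 13 of the 20 distinct members, where it was lowest in 24.6% of all probe sets, and in 9 of the 11 members at 100 or more, where it was lowest in 47.3% of all probe sets at that level. Its difference from the mean of EE mice 1 and 2 had a median of -0.76 over the 20, with extremes of -1.65 for Trav7-4 and 0.32 for Trgv6. The SD between mice was larger in EE than in SE for 15 of the 20, against 59.1% of all probe sets. At 100 or more it was larger in EE for 9 of the 11, against 66.5% of all probe sets at that level. The wider spread in EE was thus not particular to V segments. Median SDs over the 20 were 0.46 in EE and 0.17 in SE, and over all probe sets 0.19 and 0.15. The range of the SE mice had a median of 0.33 and a maximum of 0.53 over the 20, and a median of 0.29 over all probe sets.
Leaving EE mouse 3 out, limma called 8 of 22 members higher in EE and 0 lower at an unadjusted p under 0.05, where 3.19% of all probe sets were called in each direction, and none passed an adjusted p of 0.05 (lowest 0.700). As 1 of the identical pairs was called, the 8 are 7 distinct probe sets, 2 of Trav12-2, 2 of Trav9d-3, 2 of Trav7-4 and that of Trbv13-2. All were read in the same EE mice 1 and 2 and several share a segment name, so they are not independent observations. The mouse left out was itself the lowest in 13 of the 20. These counts therefore describe EE mice 1 and 2 and do not test an effect of housing. At 100 or more, 5 of 11 distinct members were called higher, where 5.42% of all probe sets at that level were. The largest fold changes were 0.88 for Trav7-4 (probe set 17300155, standard error 0.23, unadjusted p = 0.00814), 0.57 for Trbv13-2 (standard error 0.17, unadjusted p = 0.0143) and 0.56 for Trav12-2 (probe set 17300173, standard error 0.14, unadjusted p = 0.00671), all from limma. The median over members was then 0.37, and -0.01 over all probe sets. EE mice 1 and 2 both lay above all SE mice in 13 of the 20, against 10.9% of all probe sets, and in 8 of the 11 at 100 or more, against 19.6% of those at that level. In unweighted fits with EE mouse 3 in the comparison, also with any other mouse left out, 0 members were called. Array weights, which gave that mouse a weight of 0.31, called 4 of 22 higher and 0 lower. The share of all probe sets called with these weights is not given here, so the 4 cannot be set against it.

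**Figure D2:**
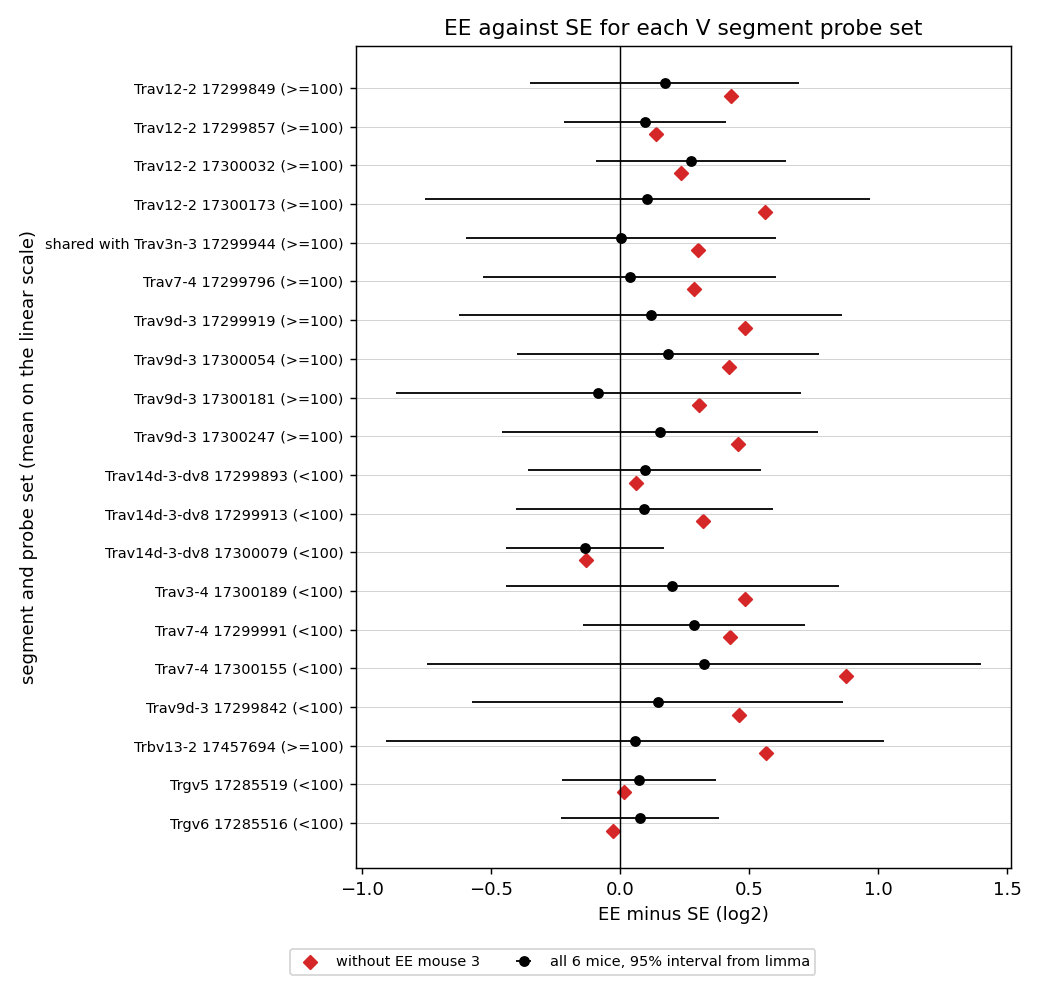
Black points give the log2 fold change of EE over SE for each distinct probe set with all 6 mice, bars its 95% interval from limma, and red diamonds the fold change without EE mouse 3. Every bar spans 0, and the diamonds reach 0.88 for Trav7-4 and 0.57 for Trbv13-2.

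Genes of the proteins that carry the receptor and pass on its signal also had EE mouse 3 lowest in most cases. Of 30 genes listed for CD3, coreceptors and proximal signalling, 26 were measured, and limma called 0 in either direction at an unadjusted p under 0.05 (lowest unadjusted p = 0.0598, adjusted p = 1.00), with a median log2 fold change of 0.06. Cd3e, a CD3 chain needed for surface expression, read 10.78, 10.43 and 10.68 in SE and 11.08, 11.09 and 9.97 in EE. EE mouse 3 was lowest in 18 of the 26, where it was lowest in 24.6% of all probe sets and in 47.3% of those at 100 or more.
The widest gap between that mouse and EE mice 1 and 2 was in Themis, a T cell signalling protein, at 6.13 against 7.62 and 7.58. The coreceptor chains of cytotoxic T cells were less low there, with Cd8a at 8.23 and 7.94 in EE mice 1 and 2 and 7.58 in EE mouse 3, above SE mice 2 and 3 (7.13 and 7.54). For Cd4, the coreceptor of helper T cells, the values were 8.59, 8.59 and 7.58, the last below all SE mice (8.08 to 8.31). Leaving EE mouse 3 out, limma called 8 of the 26 genes higher and 0 lower at an unadjusted p under 0.05, with a median of 0.28. In that fit 3.19% of all probe sets were called in each direction, and 5.42% of those at 100 or more were called higher. These genes too were read in the same EE mice 1 and 2, so their calls are not independent. Without SE mouse 1, 4 of the 26 passed in either direction, and the share of all probe sets is not given here.

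When each array was shifted by its mean over Cd3d, Cd3e and Cd3g, the remaining differences between mice narrowed for most of the better measured V segments. Cd247, the fourth CD3 chain listed, has no probe set of its own name here. In 9 of the 11 distinct members at 100 or more, the range over the 6 mice became smaller, and this held for 20.6% of all probe sets at that level. Relative to the SE mean, the CD3 mean ran from 0.51 in EE mouse 1 to -0.67 in EE mouse 3. A probe set that varied little between mice therefore widens by arithmetic after this shift, so widening is no result about such a probe set. The median range of these 11 went from 0.93 to 0.42 on the log2 scale, while that of all probe sets at 100 or more went from 0.63 to 1.08. For Trbv13-2 the range went from 1.66 to 0.57, for Trav12-2 in probe set 17300173 from 1.44 to 0.35, and for Trav9d-3 in probe set 17300247 from 1.03 to 0.31.
The ranges that grew were those of Trav12-2 in probe sets 17300032 (0.65 to 1.45) and 17299857 (0.36 to 1.06) and, among members under 100, of 5 of 9, including both gamma segments (0.36 to 1.49 for Trgv6). Relative to CD3, 0 of 22 members passed an unadjusted p under 0.05 from limma, where 0.622% of all probe sets did, and the median log2 fold change was 0.02. That fit gave every probe set the same standard error of 0.45, so a log2 fold change of at least 0.87 was needed for a call, and the 0 does not bear on smaller differences. The sign was positive for 13 and negative for 7 of the 20. Over all 41345 probe sets it was positive for 11409 and negative for 29936 after this shift, with a median of -0.09.

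**Figure D3:**
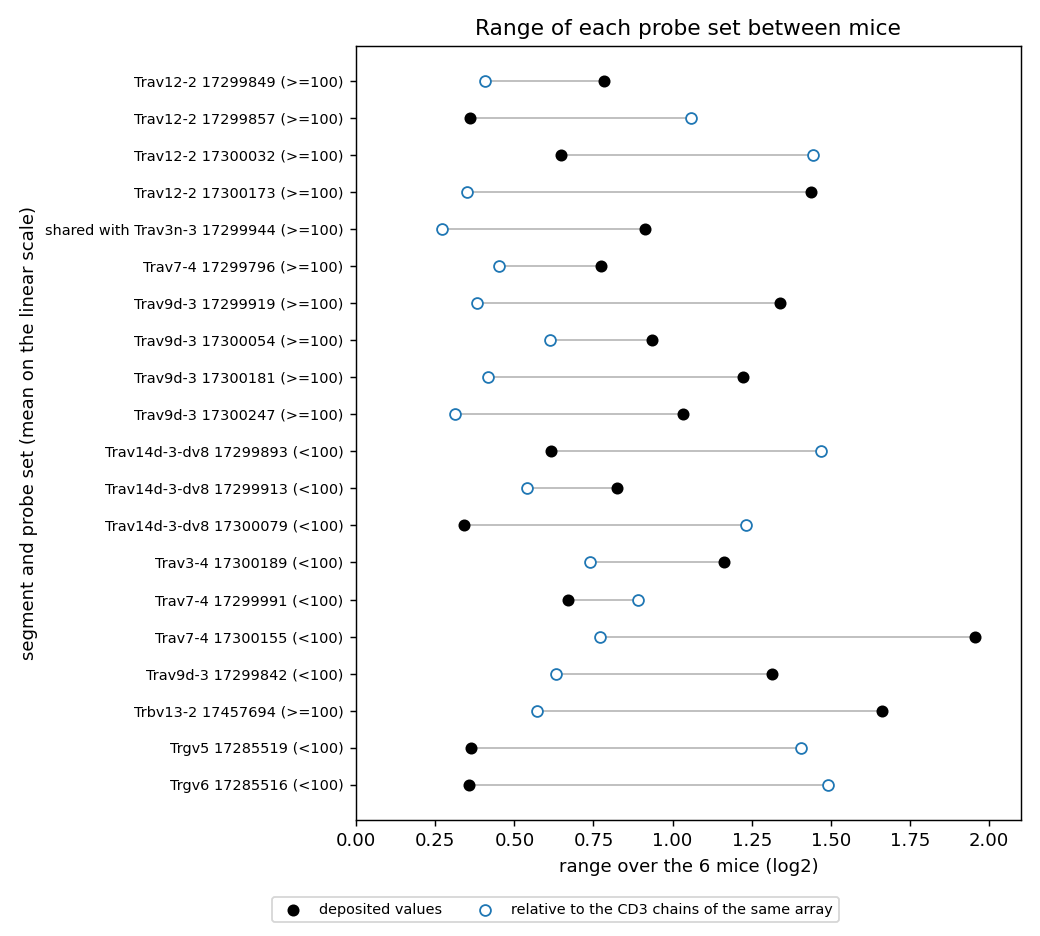
The horizontal axis is the range over the 6 mice on the log2 scale for each distinct probe set, as deposited (black) and after subtracting the mean of Cd3d, Cd3e and Cd3g on the same array (open). In 9 of the 11 probe sets at 100 or more the range narrowed, and for both gamma segments it widened.

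Genes of other blood cells moved in the same mice, and their part in the V segment values was not tested. All 7 measured B cell markers had their lowest value in EE mouse 3, and their summed linear value was 5547 there, against 10100.1 and 10299.3 in EE mice 1 and 2 and 7779 to 10576.9 in SE. Of 7 measured NK cell markers, 6 had their highest value in EE mouse 3, and they summed to 1595 there, against 1121 and 1034 in EE mice 1 and 2 and 771 to 1244 in SE. Monocyte markers (6 of 6 measured, 1 called higher by limma at an unadjusted p under 0.05, Mpeg1, and 0 lower) summed to 2589 in EE mouse 3, 1604 and 1579 in EE mice 1 and 2, and 1201 to 1569 in SE. The sums of EE mice 1 and 2 were thus close to the highest SE sum. By the median log2 distance from the SE mean the groups overlapped, with SE mouse 1 (0.18) above EE mice 1 and 2 (0.12 and 0.14). Platelet markers (5 of 6 measured) summed to 21405 to 23927 in EE and 15886 to 22842 in SE.
The sums of neutrophil markers did not overlap between the groups, at 5523 to 6757 in EE and 3442 to 4284 in SE (6 of 6 measured, 5 called higher by limma at an unadjusted p under 0.05 and 0 lower). Nor did those of red cell markers (4 of 6 measured, 0 higher and 4 lower), with 3920 to 5048 in EE and 5400 to 7230 in SE. Over all probe sets, 1.45% were called higher and 2.3% lower in EE. T cell markers (7 of 10 measured) summed to 2715 in EE mouse 3, 5788 and 5349 in EE mice 1 and 2, and 3407 to 4575 in SE. As for the V segments at 100 or more, the T cell sum was lowest in EE mouse 3 and highest in EE mice 1 and 2. In EE mouse 3 the T cell, B cell and red cell sums lay below those of all SE mice. Its NK cell, monocyte, platelet and neutrophil sums lay above those of all SE mice. Such sums are weighted towards the brightest probe sets, and single markers did not all follow them. In EE mouse 3, Cd8a, Cd8b1, Klrb1c, Cd14, Pf4, Ppbp, Retnlg and Epb42 lay within the values of the SE mice.

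**Figure D4:**
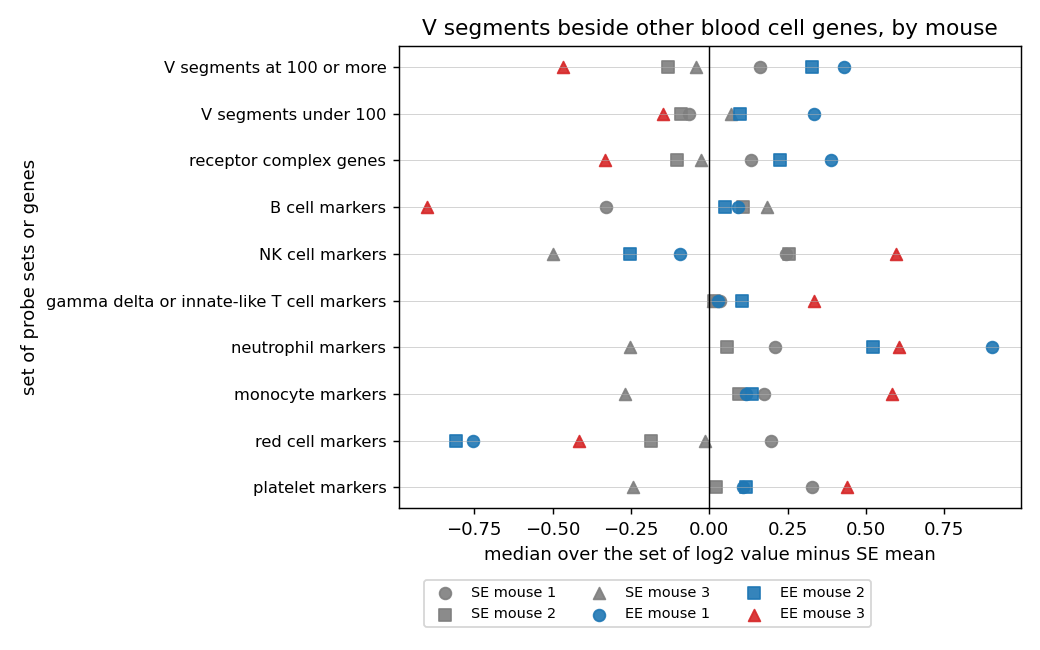
For each set of probe sets or marker genes, a point is the median distance of 1 mouse from the SE mean on the log2 scale. V segments at 100 or more and receptor complex genes place EE mouse 3 lowest (-0.47 and -0.33) and EE mouse 1 highest (0.43 and 0.39), while neutrophil and red cell markers separate all EE from all SE mice.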

How the data were processed

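Whole blood RNA of 6 mice was hybridized to Affymetrix whole-transcript arrays, 1 for each mouse. The deposited values are log2 expression, made by the authors with RMA in affy, which equalizes the distributions of probe intensities and can compress folds. The deposited probe set values still differed between arrays, with medians from 5.03 in SE mouse 1 to 5.11 in EE mouse 3. The notes of the submitters list limma without its version, and the genome build of the probes is not given in the sources used here. Titles tied columns to mice. Segment names came from the platform's annotation, and 9 of 9 segments matched the GRCm38.p6 gene table, which gave chromosomes only.

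The model (limma 3.58.1, R 4.3.3, functions lmFit and eBayes, no covariate) was run on all 41345 probe sets, and Benjamini-Hochberg adjustment covered all of them, since the study's filter (Entrez ID, at least 100) keeps 13 of 22 members. Code was tested on simulated data. Mice were separate animals, so each p reflects variation between animals, and 3 per group limit the precision. Housing was given by enclosure, and which mice shared one is not given, so variation between enclosures may not be covered. The members, lists and alternatives were chosen with earlier results of these data known. Named were members at 100 or more, the 5 widest ranges and the 3 smallest p in each locus and direction, and the remaining members were added so that all are accounted for. The planned CD3 scaling also listed Cd247, which could not be used. Alternatives covered filters, prior, weights, scaling, the mouse number as a block and each mouse left out.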

Additional observations from a re-analysis of the deposited data

How the results depend on the processing

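Of 22 members, 0 were lower in EE at an unadjusted p under 0.05, and 0 passed an adjusted p of 0.05, under every alternative run. The number higher was 0 under all but array weights of limma, which gave EE mouse 3 a weight of 0.31 and called 4, and over the mice left out in turn it ranged from 0 to 8, the 8 without EE mouse 3. The median log2 fold change ranged from -0.05 without EE mouse 1 to 0.37 without EE mouse 3, and the fold change turned sign in 11 of the 20 distinct members without EE mouse 1 and in 2 to 5 without each other mouse. For the receptor complex genes, array weights called 6 and the count ranged from 0 to 8 over the mice left out, with 4 without SE mouse 1. Mice with the same number did not deviate together (r across probe sets 0.025, -0.038 and -0.034), and with the mouse number as a replicate block 0 members and 2 receptor complex genes were called. Shares of all probe sets called with array weights, with this block and without SE mouse 1 are not given here.
Signs that turned were as follows, and the cause was not tested. Array weights gave -0.011 for Trgv6, -0.0094 for Trav14d-3-dv8 (17299893) and 0.26 for Trav9d-3 (17300181). Centring each array on its median gave -0.0038 for the shared Trav3n-3 probe set. Relative to CD3, values were -0.0089 for Trgv6, -0.013 for Trgv5, -0.050 for Trav7-4 (17299796), -0.082 for the shared Trav3n-3 probe set and -0.029 for Trbv13-2.
With each mouse left out in turn, log2 fold changes ranged from -0.16 to 0.56 for Trav12-2 (17300173), and for Trav14d-3-dv8 from -0.045 to 0.25 (17299893) and -0.090 to 0.32 (17299913). They ranged from -0.099 to 0.48 for Trav3-4, -0.16 to 0.30 for the shared Trav3n-3 probe set, -0.11 to 0.29 (17299796) and -0.10 to 0.88 (17300155) for Trav7-4, and -0.27 to 0.57 for Trbv13-2. For Trav9d-3 they were -0.20 to 0.46 (17299842), -0.18 to 0.49 (17299919), -0.046 to 0.42 (17300054), -0.30 to 0.31 (17300181) and -0.060 to 0.46 (17300247). For Trgv5 they were -0.011 to 0.12 and for Trgv6 -0.029 to 0.14. Signal over background is not given in the table, so the 9 distinct members under 100 may lie near background.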
